A study of Caenorhabditis elegans with 37 samples.

Results

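DD neurons are GABA-releasing motor neurons of the ventral nerve cord of the nematode Caenorhabditis elegans. The libraries examined here are the 3 from cells sorted as DD, set against the 5 from cells sorted with a pan-neuronal marker named Rab3, which makes 8 of the 37 libraries of the series. They were chosen by their column names in a table of read counts per gene. All were untreated bulk libraries of total RNA from cells isolated by fluorescence-activated sorting from worms grown on plates seeded with E. coli NA22. Cells were collected in Trizol, RNA was taken up by chloroform extraction and libraries were made with the SoLo Ovation kit. The 4 libraries of VD neurons, the other class of D motor neuron, and the 4 of all viable cells, sorted on a live/dead stain alone, are given where they bear on a DD value. For the strains, the reporter that marked DD cells and the sex, age and stage of the worms, nothing is given in the sources used here. The pan-neuronal sort holds every neuron class that its marker labels, so DD cells could be among its own cells.

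DD neurons make GABA from glutamate with the decarboxylase UNC-25 and load it into synaptic vesicles with the transporter UNC-47. They release it onto body-wall muscle, which relaxes on one side of the body while cholinergic motor neurons contract the other. The homeodomain factor UNC-30 drives the GABA genes in both D classes. DD neurons are known for remodelling after hatching, when their synaptic outputs move from ventral to dorsal muscle, whereas UNC-55 keeps VD neurons from doing so. They receive acetylcholine through nicotinic receptors, and flp-13, a gene for FMRFamide-like peptides, is a marker of DD against VD.

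Depth was 1309333, 3439492 and 4484781 counts in DD libraries 83, 84 and 86, and between 3124136 and 5252601 counts in the pan-neuronal libraries 1, 7, 10, 11 and 12. The DD libraries detected 16805 to 19482 genes and the pan-neuronal libraries 21973 to 24523. Pan-neuronal library 1 stood apart: its counts differed from those of the other pan-neuronal libraries by a chi-square of 28.8 to 34.2 per degree of freedom, against 2.22 to 3.52 among the others, and 16.7 to 21.2 among the DD libraries. Whether the libraries of a group are from separate worm cultures is not stated in the labels. The p-values rest on a spread within groups that was estimated over all 37 libraries of the series in 10 groups. They therefore do not describe the spread of the DD and pan-neuronal libraries alone. Part or all of that within-group spread may be technical. Levels are CPM, counts per 1000000 of a library total scaled by its trimmed-mean (TMM) factor, listed in the library order above. Differences are log2 values, DD minus pan-neuronal, from edgeR's quasi-likelihood test. Each is given ± an approximate standard error, its size divided by the square root of the test's F statistic. A gene is called higher or lower when its Benjamini-Hochberg adjusted p over all 15181 genes tested is under 0.05.

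Of these genes, 2773 (18.3%) were higher in DD and 3162 (20.8%) were lower, 39.1% in all. The higher ones were 46.7% of those called, and 57.4% when library totals alone set the scale, which moved the median difference of all genes to 0.37, against 0.06 with TMM factors. Every DD library lay above every pan-neuronal library for 3430 genes (22.6%) and below every one for 4088 (26.9%). Without pan-neuronal library 11, 1740 genes were higher and 3458 lower. A fit of only the DD and pan-neuronal libraries called 3832 higher and 4309 lower, among 13742 tested. With this many genes called, the counts of each gene list below are read against those shares. Of the 5 GABA genes 3 were higher and 1 was lower, while cholinergic motor neuron genes and most peptide genes lay low.

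**Figure D1:**
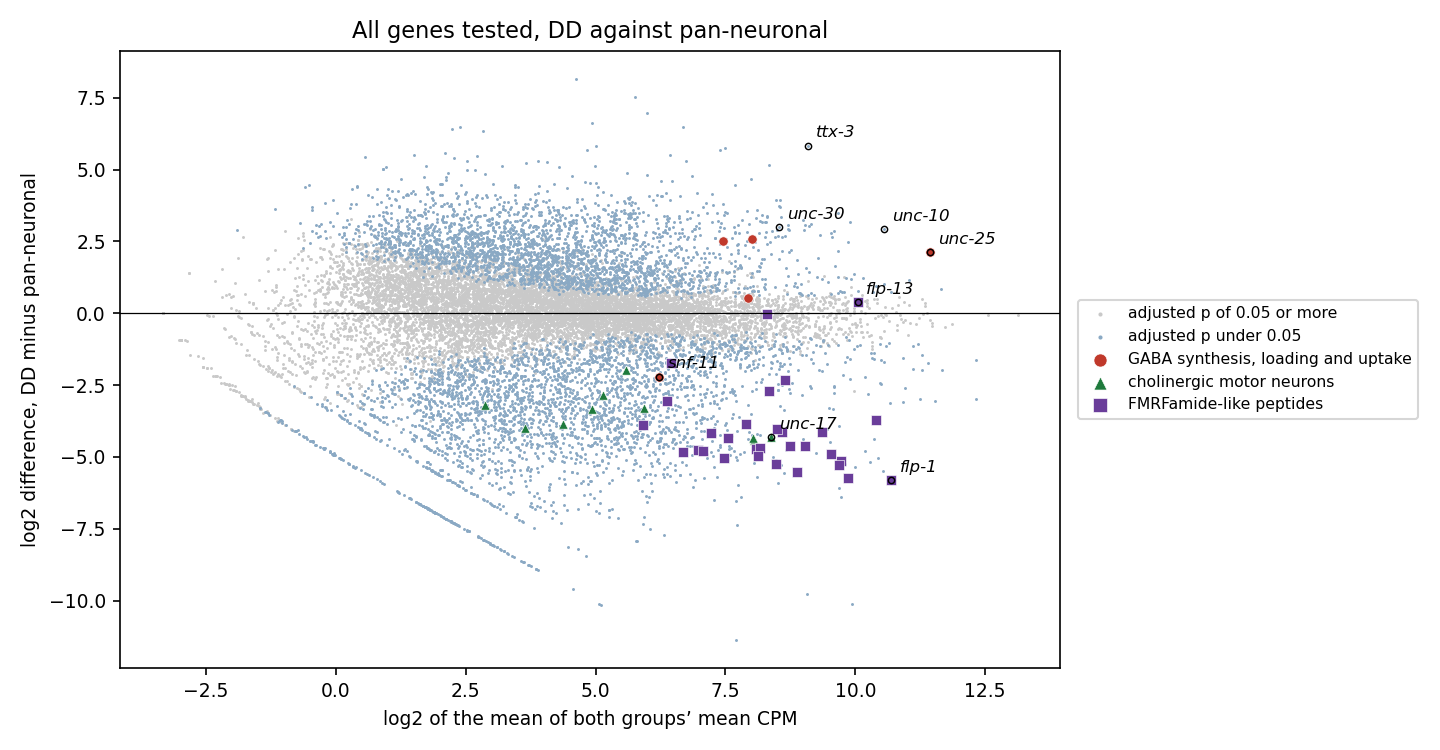
Each point is a gene: the x axis is log2 of the mean of both groups' mean CPM, and the y axis is the log2 difference, DD minus pan-neuronal, with called genes in blue and 3 gene lists in colour. The GABA genes unc-25, unc-47 and unc-46 sit near 2 to 3, most FMRFamide-like peptide genes sit below -3.5, and flp-13 sits near 0. The diagonal lines of points at the lower left are genes with few or no counts in the DD libraries.

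The GABA genes were the first check of the label, and 3 of the 5 were higher in DD. unc-25 read 4547, 3587 and 5409 CPM in the DD libraries, against 936, 1042, 1069, 1039 and 1056 CPM in the pan-neuronal libraries. unc-47 read 433, 386 and 511 CPM in DD, against 61.3, 75.1, 78.9, 76.7 and 80.6 CPM in pan-neuronal. unc-46, which encodes a LAMP-like protein that brings UNC-47 to vesicles, read 247, 270 and 376 CPM in DD, against 47.9, 56, 59.2, 49.7 and 49.2 CPM in pan-neuronal. No DD library overlapped a pan-neuronal one for any of the 3. The log2 difference was 2.13 ± 0.31 for unc-25 (adjusted p = 3.09e-06), 2.57 ± 0.32 for unc-47 (adjusted p = 3.40e-07) and 2.50 ± 0.39 for unc-46 (adjusted p = 8.98e-06). In linear terms unc-25 was 4.39-fold, unc-47 5.95-fold and unc-46 5.68-fold higher in DD. The same genes averaged 2541, 257 and 166 CPM in VD, and 73.6, 5.02 and 3.4 CPM in the all-cell libraries. The plasma-membrane GABA transporter snf-11 went the other way, at 34.2, 24 and 22.4 CPM in DD, against 113 to 131 CPM in pan-neuronal (-2.20 ± 0.46, adjusted p = 3.51e-04). The GABA transaminase gta-1, which breaks GABA down, read 260, 264 and 340 CPM in DD, against 142 to 236 CPM in pan-neuronal, and its difference of 0.52 did not pass (adjusted p = 0.174). All 3 DD libraries were still above all pan-neuronal ones for gta-1. In a bulk sort, fewer cells of a type and less RNA per cell cannot be told apart.

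Markers of other GABA neuron classes were low. nlp-11, a peptide gene of the RIS interneuron, read 35.7, 65.1 and 36.4 CPM in DD, against 1645 to 1962 CPM in pan-neuronal (-5.25 ± 0.56, adjusted p = 2.27e-08). aptf-1, the AP2 factor that RIS needs to act in sleep, read 1.43, 2.0 and 2.18 CPM in DD, against 24.2 to 53.6 CPM in pan-neuronal (-4.05 ± 0.72, adjusted p = 5.16e-05). All 5 genes of that list were lower in DD, with a median of -3.23.

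flp-13, the DD marker, did not separate DD from the pan-neuronal sort. It read 1706, 675 and 1220 CPM in DD, against 1221, 732, 872, 901 and 883 CPM in pan-neuronal, with overlapping groups and a difference of 0.38 ± 0.45 (adjusted p = 0.53). The gene is known also from several sensory and pharyngeal neurons. It did separate DD from VD, as given further on. An uncharacterised non-coding gene next to it, F33D4.11, was among the highest in DD, at 76.3, 38.3 and 75.6 CPM, against 3.15, 0, 0, 0.471 and 1.71 CPM in pan-neuronal and 6.74 to 16.4 CPM in VD (5.82 ± 0.83, adjusted p = 6.11e-05, and 0.0947 by DESeq2's Wald test). In the WBcel235 annotation F33D4.11 lies on chromosome IV from 7700539 to 7700761. It starts 2119 bases upstream of flp-13, which runs from 7696932 to 7698420 on the other strand. Whether reads of a reporter construct with this sequence are among its counts was not tested.

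Of the 18 tested genes for D motor neuron identity and remodelling, 6 were higher in DD and 5 lower, against the background of 18.3% and 20.8%. unc-30 read 780, 400 and 790 CPM in DD, against 102, 71.6, 76.3, 79.8 and 78.6 CPM in pan-neuronal (3.01 ± 0.43, adjusted p = 2.96e-06). dve-1, a homeodomain gene that promotes DD synapse removal, read 287, 187 and 151 CPM in DD, against 15, 35, 37, 33.9 and 39.6 CPM in pan-neuronal (2.69 ± 0.49, adjusted p = 7.48e-05). irx-1, the Iroquois homeodomain factor of DD remodelling, read 305, 231 and 210 CPM in DD, against 49.96, 62.6, 59.2, 53.4 and 64.9 CPM in pan-neuronal (2.10 ± 0.41, adjusted p = 1.82e-04). For all 3 factors the lowest DD library lay well above the highest pan-neuronal one. ttr-39, a transthyretin-related gene whose promoter is used to mark D neurons, read 1344, 1060 and 1609 CPM in DD, against 282 to 306 CPM in pan-neuronal (2.18 ± 0.38, adjusted p = 4.67e-05). The T-box factor mab-9 read 191, 52.1 and 113 CPM in DD, against 28.1 to 39.7 CPM in pan-neuronal (1.86 ± 0.51, adjusted p = 0.00429). The aristaless-like homeodomain factor alr-1 read 345, 223 and 245 CPM in DD, against 96.5 to 118 CPM in pan-neuronal (1.42 ± 0.47, adjusted p = 0.0173). DD library 83 was the highest for mab-9 and alr-1, and without it, or without pan-neuronal library 11 for alr-1, they did not pass: without library 83 mab-9 stood at 1.35 (adjusted p = 0.0664) and alr-1 at 1.21 (adjusted p = 0.0772).

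The lower members were mostly less firm. zag-1, a zinc-finger homeodomain factor of axon development, read 118, 70.1 and 112 CPM in DD, against 425 to 547 CPM in pan-neuronal (-2.29 ± 0.44, adjusted p = 1.49e-04), and passed under 14 of 14 alternatives. unc-8, a DEG/ENaC channel subunit that takes part in removing DD ventral synapses, read 20.7, 16.3 and 9.37 CPM in DD, against 33.7 to 62.9 CPM in pan-neuronal (-1.83 ± 0.59, adjusted p = 0.0134), and passed under 13 of 14, but not without DD library 86 (adjusted p = 0.0808). The nuclear receptor unc-55 read 37.8, 20.8 and 16.3 CPM in DD, against 41.9 to 53.1 CPM in pan-neuronal, a difference of -0.98 ± 0.40 (adjusted p = 0.0476). The CREB factor crh-1 read 170, 180 and 143 CPM in DD, against 703, 333, 315, 333 and 344 CPM in pan-neuronal (-1.30 ± 0.51, adjusted p = 0.0418). The kinase cdk-5, which helps move synaptic vesicle components during remodelling, read 39.2, 31.6 and 49.2 CPM in DD, against 43.6, 71.6, 76.3, 77.7 and 71 CPM in pan-neuronal (-0.76 ± 0.31, adjusted p = 0.0471). These last 3 calls depended on single libraries: unc-55 passed under 6 of 14 alternatives, crh-1 under 8 of 14 and cdk-5 under 7 of 14. Leaving out pan-neuronal library 1, in which crh-1 was highest, gave -1.01 for crh-1 (adjusted p = 0.123) and -0.95 for unc-55 (adjusted p = 0.0761), and leaving out DD library 83 gave -0.75 for cdk-5 (adjusted p = 0.106). Over the settings that left out 1 library the list had 2 to 5 lower members.

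The remaining 7 tested members, which include timing and remodelling regulators, did not pass. hbl-1 and lin-14, heterochronic factors that set when remodelling happens, differed by 0.86 and 0.60 (adjusted p = 0.16 and 0.285), and DD library 83 was the highest DD library for both. The membrane-bound factors myrf-1 and myrf-2 differed by 0.61 and -0.39 (adjusted p = 0.344 and 0.438), and their partner pan-1 by 0.27 (adjusted p = 0.657). oig-1, a secreted immunoglobulin-domain protein that holds back remodelling, read 95.6, 75.1 and 82.6 CPM in DD, against 80.5 to 99.8 CPM in pan-neuronal (-0.08 ± 0.47, adjusted p = 0.916). The cyclin cyy-1 differed by -0.10 (adjusted p = 0.822). cnd-1, a NeuroD-like factor of early D neuron development, had too few counts to be tested.

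**Figure D2:**
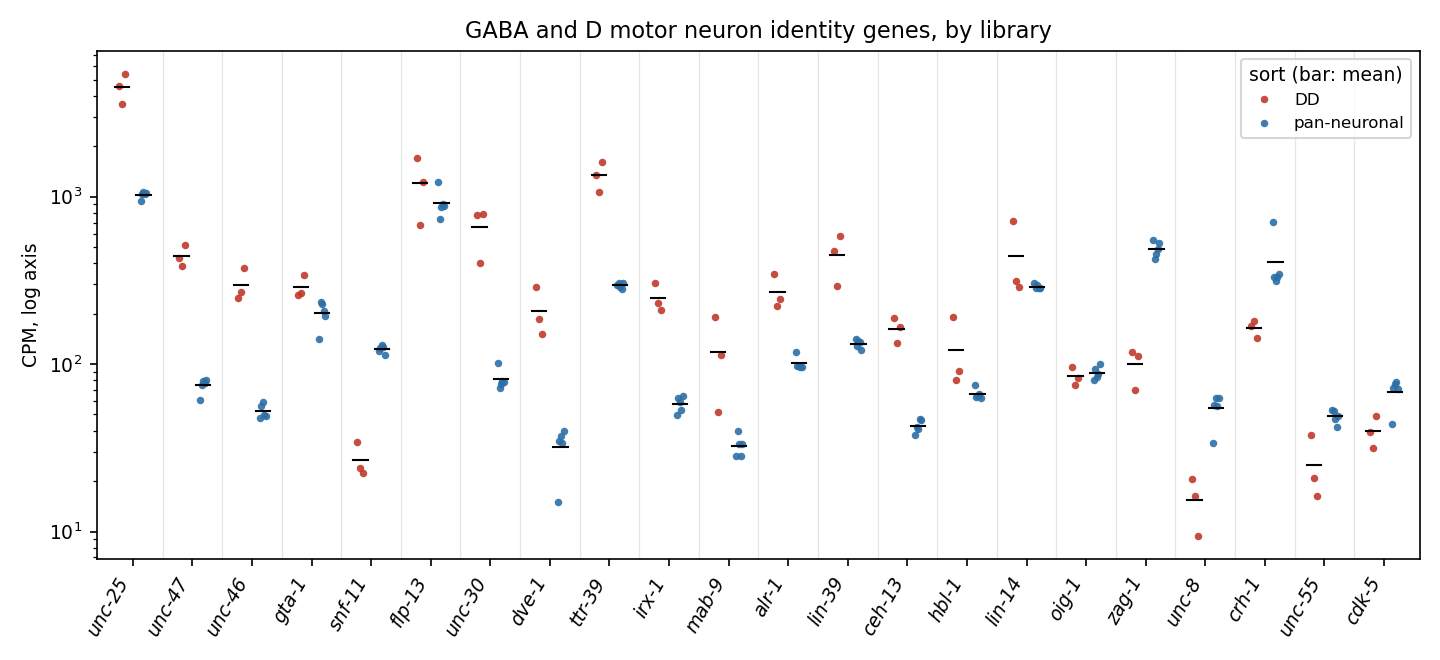
CPM of 22 genes in each library, on a log axis, with the DD libraries in red left of the pan-neuronal libraries in blue and a bar at each group's mean. unc-25, unc-47, unc-46, unc-30, dve-1, ttr-39 and irx-1 lie higher in every DD library, snf-11 and zag-1 lie lower, and flp-13 and oig-1 overlap.

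Among the 6 Hox genes, the transcription factors that place cells along the body axis, 2 were higher in DD and 1 lower. With so few members these counts cannot be told from the shares over all genes, 18.3% higher and 20.8% lower. The mid-body gene lin-39 read 475, 293 and 583 CPM in DD, against 121 to 141 CPM in pan-neuronal (1.76 ± 0.40, adjusted p = 7.51e-04). The anterior gene ceh-13 read 189, 133 and 165 CPM in DD, against 37.6 to 47.3 CPM in pan-neuronal (1.92 ± 0.50, adjusted p = 0.00257). The posterior gene egl-5 read 5.71, 10.3 and 4.79 CPM in DD, against 16.8 to 41.3 CPM in pan-neuronal (-2.30 ± 0.71, adjusted p = 0.0106). Its call was lost without DD library 86 (-2.08, adjusted p = 0.0601).

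Factors of other neuron classes were mostly low. Of 65 tested genes in the list of other homeobox factors, 37 were lower in DD and 7 higher, and 4 of the 7 higher ones were unc-30, dve-1, irx-1 and alr-1. Without pan-neuronal library 11, 4 were higher. Among the 8 LIM homeobox genes 6 were lower, with mec-3, the touch neuron factor, at 2.14, 0.501 and 2.18 CPM in DD, against 37.7 to 56.6 CPM in pan-neuronal (-4.92 ± 0.69, adjusted p = 2.14e-06). lin-11 read 6.42, 15.3 and 9.37 CPM in DD, against 148 to 222 CPM in pan-neuronal (-4.05 ± 0.63, adjusted p = 9.12e-06). The single LIM gene that was higher was ttx-3, and it was one of the most raised genes of the whole comparison.

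ttx-3, best known as the factor that specifies the AIY interneuron, read 1216, 779 and 1203 CPM in DD, against 35.8, 18.4, 11.8, 13.4 and 13.7 CPM in pan-neuronal (5.83 ± 0.57, adjusted p = 4.93e-09). It read 575, 557, 346 and 524 CPM in VD and 1.73 CPM on average in the all-cell libraries. Every DD and VD library lay far above the highest pan-neuronal one, library 1. For DD, no overlap was a condition of being picked among the leading genes. In WBcel235 ttx-3 covers 11764456 to 11769378 on chromosome X and overlaps the end of lact-7 on the other strand by 80 bases. lact-7 read 75.6, 4.26 and 6.54 CPM in DD, against 4.73 to 9.26 CPM in pan-neuronal, and did not pass (adjusted p = 0.0516). Whether reads of a reporter construct are among the ttx-3 counts was not tested.

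A further 3 genes were high in all DD libraries and lay above the pan-neuronal range in VD too. ttbk-5, a gene for a tau-tubulin kinase, read 482, 145 and 367 CPM in DD, against 5.15 to 7.78 CPM in pan-neuronal and 75.2 to 182 CPM in VD (5.68 ± 0.51, adjusted p = 1.08e-09). It starts 781 bases from ttr-39 on chromosome IV, from 10090658 to 10092389, and the pair point away from each other. Here too, reads from a reporter construct were not tested for. unc-10, the gene for the active zone protein RIM, read 3691, 1745 and 2520 CPM in DD, against 461, 322, 317, 314 and 341 CPM in pan-neuronal and 884 to 1690 CPM in VD (2.92 ± 0.41, adjusted p = 1.91e-06). An unnamed pseudogene on chromosome III, WBGene00017102, read 52.1, 41.8 and 53.8 CPM in DD, against 0.263, 0, 0.37, 0 and 0 CPM in pan-neuronal and 6.41 to 7.49 CPM in VD. With 2 counts over all pan-neuronal libraries, its ratio was 447, with a 95% counting interval of 123 to 3704.

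The hedgehog-related gene qua-1 read 123, 206 and 184 CPM in DD, against 5.0 to 8.58 CPM in pan-neuronal (4.60 ± 0.66, adjusted p = 2.68e-06). The collagen col-41 read 139, 128 and 177 CPM in DD, against 3.33 to 8.41 CPM in pan-neuronal (4.60 ± 0.69, adjusted p = 4.83e-06). Both are known from the skin, and in VD they read 307 to 407 and 227 to 452 CPM.

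Much of the rest of the top of the list came from 1 library. Of the 21 leading genes that the naming rule picked, 12 had a DD library 83 value between 12.6 and 72.4 times the next DD library, and 9 of those 12 did not pass without it. All 9 other leading genes passed without it. asns-1, asparagine synthetase, read 584, 12.3 and 10.2 CPM in DD, against 0.526 to 3.43 CPM in pan-neuronal. Its difference of 6.49 ± 1.11 (adjusted p = 3.06e-05) became 2.35 without DD library 83 (adjusted p = 0.0551). abu-11, one of a family of genes for Q/N-rich secreted proteins, read 1032, 17.3 and 17.4 CPM in DD, against 3.86 to 10.4 CPM in pan-neuronal. Its difference of 5.76 ± 0.94 (adjusted p = 1.70e-05) became 1.41 (adjusted p = 0.153). idpp-12 read 369, 2.5 and 8.72 CPM in DD, against 0.214 to 1.41 CPM in pan-neuronal, and its difference of 6.98 ± 1.07 became 2.52 (adjusted p = 7.01e-06 with and 0.0267 without that library). pqn-74, another Q/N-rich gene, read 1784, 51.8 and 45.3 CPM in DD, against 11.3 to 22.5 CPM in pan-neuronal, and 5.14 became 1.46 (adjusted p = 3.71e-05 with and 0.12 without). The abu and pqn genes include near-identical copies, so reads could be split among them. DD library 83 also had the largest share of pharyngeal muscle markers of the DD libraries, and the part of those cells in these values was not tested.

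Of 25 nicotinic acetylcholine receptor subunit genes tested, 5 were higher in DD and 11 lower, against 18.3% and 20.8% over all genes. The higher count was thus near the share over all genes, and only the lower count was above it. unc-29, a subunit of the levamisole-sensitive receptor, read 75.6, 74.6 and 86.7 CPM in DD, against 11.3 to 13.9 CPM in pan-neuronal (2.62 ± 0.54, adjusted p = 2.59e-04). lev-1, another such subunit, read 174, 140 and 243 CPM in DD, against 29 to 32.5 CPM in pan-neuronal (2.59 ± 0.58, adjusted p = 6.64e-04). unc-38 and unc-63, their alpha partners, read 62.8, 49.6 and 50.5 and 101, 101 and 112 CPM in DD, against 67.8 to 82.8 and 81.2 to 124 CPM in pan-neuronal, and differed by -0.52 and -0.02 (adjusted p = 0.37 and 0.98). acr-12, the subunit known at the inputs of D neurons, read 114, 91.4 and 159 CPM in DD, against 106 to 119 CPM in pan-neuronal (0.09 ± 0.48, adjusted p = 0.896). Thus unc-29 and lev-1 passed, and unc-38, unc-63 and acr-12 did not.

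acr-9 and acr-14 were also higher, at 118, 54.8 and 122 and 135, 47.1 and 68.6 CPM in DD, against 19.2 to 32.2 and 17.9 to 26.6 CPM in pan-neuronal. Their differences were 1.91 ± 0.71 and 1.78 ± 0.61, with adjusted p of 0.0331 and 0.0197. acr-9 passed under 8 of 14 alternatives and acr-14 under 12 of 14. Without DD library 83 they had adjusted p of 0.0867 and 0.156, and the list had 2 higher members, as it had without pan-neuronal library 11. acr-16, the subunit of the levamisole-resistant muscle receptor, read 7.13, 4.26 and 5.01 CPM in DD, against 58.5 to 77.3 CPM in pan-neuronal (-3.70 ± 0.95, adjusted p = 0.00247). acr-5, known from cholinergic B motor neurons, read 1.43, 2.75 and 3.27 CPM in DD, against 31 to 43 CPM in pan-neuronal (-3.84 ± 0.52, adjusted p = 9.97e-07). acr-2, which cholinergic motor neurons use, read 16.4, 6.76 and 3.92 CPM in DD, against 44.2 to 72.7 CPM in pan-neuronal (-2.84 ± 0.55, adjusted p = 1.37e-04).

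Of the 13 genes for receptor assembly and clustering, 4 were higher in DD and 1, oig-4, was lower. molo-1, an auxiliary subunit of levamisole receptors, read 177, 96.9 and 177 CPM in DD, against 27 to 36 CPM in pan-neuronal (2.23 ± 0.39, adjusted p = 3.37e-05). madd-4, a secreted organiser of neuromuscular synapses, read 1609, 931 and 1269 CPM in DD, against 324 to 635 CPM in pan-neuronal (1.24 ± 0.34, adjusted p = 0.00482). eat-18, which pharyngeal nicotinic receptors need, read 656, 572 and 998 CPM in DD, against 76.8 to 108 CPM in pan-neuronal (3.06 ± 0.57, adjusted p = 9.36e-05). eat-18 lies inside lev-10 on chromosome I and on the same strand, so their reads can be shared, and lev-10 itself read 652, 570 and 1004 CPM in DD, against 282 to 387 CPM in pan-neuronal (1.12 ± 0.56, adjusted p = 0.109). Body-wall muscle also uses these receptors, and its markers were higher in DD too, as given below.

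The genes of other transmitters were low in DD. All 10 markers of cholinergic motor neurons were lower, with a median difference of -3.58. unc-17, the vesicular acetylcholine transporter, read 33.5, 37.1 and 25.1 CPM in DD, against 571 to 679 CPM in pan-neuronal (-4.31 ± 0.66, adjusted p = 6.51e-06). cha-1, choline acetyltransferase, shares its locus with unc-17 and read 27.8, 26.5 and 17 CPM in DD, against 478 to 535 CPM in pan-neuronal (-4.41 ± 0.69, adjusted p = 9.88e-06). The choline transporter cho-1 read 33.5, 25.5 and 15.5 CPM in DD, against 426 to 657 CPM in pan-neuronal (-4.35 ± 0.61, adjusted p = 1.79e-06). Of 10 genes for glutamate and monoamine neurons, 9 were lower. The vesicular glutamate transporter eat-4 read 22.1, 19 and 10.5 CPM in DD, against 291 to 371 CPM in pan-neuronal (-4.23 ± 0.64, adjusted p = 5.67e-06). The vesicular monoamine transporter cat-1 read 7.13, 4.51 and 7.19 CPM in DD, against 104 to 155 CPM in pan-neuronal (-4.49 ± 0.55, adjusted p = 2.31e-07). tph-1, the enzyme that commits tryptophan to serotonin, read 0.713, 0.25 and 0.654 CPM in DD, against 41.3 to 71 CPM in pan-neuronal (-6.65 ± 0.74, adjusted p = 5.25e-08). As shares of all counts, the cholinergic list held 0.0186%, 0.0154% and 0.00901% in DD, against 0.17% to 0.186% in pan-neuronal and 0.0127% to 0.0545% in the all-cell libraries, so 2 DD libraries lay within the range of the all-cell libraries and 1 below it.

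Receptor genes for GABA, glutamate and monoamines were mostly low too. Of 9 GABA receptor genes 8 were lower in DD, a median of -2.92. exp-1, the excitatory GABA receptor of enteric muscles and neurons, read 2.14, 3.76 and 1.96 CPM in DD, against 94.2 to 120 CPM in pan-neuronal (-5.25 ± 0.64, adjusted p = 2.19e-07). gab-1, a GABA-gated channel subunit, read 7.85, 8.51 and 6.32 CPM in DD, against 167 to 187 CPM in pan-neuronal (-4.54 ± 0.52, adjusted p = 9.08e-08). Of 16 ionotropic glutamate receptor genes 14 were lower and 1, glc-1, was higher, a call that was lost without DD library 83 or 86, without any 1 of pan-neuronal libraries 7, 10, 11 and 12, and by DESeq2's Wald test. Among the lower ones was the NMDA-type subunit nmr-1 at 4.28, 3.51 and 1.52 CPM in DD, against 46.3 to 63.1 CPM in pan-neuronal (-4.25 ± 0.75, adjusted p = 4.25e-05). Of 20 monoamine receptor genes 16 were lower, with the tyramine receptor tyra-3 at 11.4, 10.3 and 8.28 CPM in DD, against 144 to 195 CPM in pan-neuronal (-3.99 ± 0.54, adjusted p = 1.03e-06). None of the GABA and monoamine receptor genes was called higher.

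Peptide genes were low in DD almost throughout. Of 30 FMRFamide-like peptide genes tested, 28 were lower in DD and none higher, with a median of -4.61. The 2 that did not pass were flp-13 and flp-15, and flp-15 read 387, 214 and 344 CPM in DD, against 257 to 413 CPM in pan-neuronal (-0.02 ± 0.51, adjusted p = 0.984). flp-1 read 80.6, 52.6 and 41 CPM in DD, against 2843 to 3678 CPM in pan-neuronal (-5.82 ± 0.78, adjusted p = 9.79e-07). The lower members with the smallest differences were flp-34, flp-24 and flp-11, named here after their values were seen. flp-24 read 70.6, 153 and 175 CPM in DD, against 580 to 886 CPM in pan-neuronal (-2.33 ± 0.64, adjusted p = 0.00415). flp-11 read 43.5, 87.2 and 128 CPM in DD, against 1068, 445, 495, 437 and 384 CPM in pan-neuronal, where library 1 was the highest (-2.70 ± 0.63, adjusted p = 9.59e-04). flp-34 read 35.7, 38.6 and 46.4 CPM in DD, against 131 to 144 CPM in pan-neuronal (-1.75 ± 0.31, adjusted p = 5.48e-05). All FMRFamide-like genes together took 0.334%, 0.256% and 0.268% of counts in DD, of which flp-13 made up 45% of the mean, against 1.96% to 2.72% in pan-neuronal. The low share was not particular to DD: it was 0.152% to 0.205% in VD and 0.213% to 0.405% in the all-cell libraries.

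Of 73 neuropeptide-like protein genes 58 were lower and 4 higher. The whole list took 0.22% to 0.32% of counts in DD, 0.2% to 0.26% in VD and 2.81% to 3.36% in pan-neuronal. nlp-13 had the highest level in DD of these genes, at 383, 335 and 541 CPM, against 1274 to 1465 CPM in pan-neuronal (-1.70 ± 0.52, adjusted p = 0.00893). nlp-6 read 25.7, 35.3 and 11.1 CPM in DD, against 1440 to 1809 CPM in pan-neuronal (-6.08 ± 0.88, adjusted p = 3.09e-06). The 4 higher members were nlp-24, nlp-27, nlp-29 and nlp-31, and nlp-29 and nlp-31 are antimicrobial peptides of the skin. nlp-29 read 36.4, 30.8 and 20.9 CPM in DD, against 4.78 to 7.78 CPM in pan-neuronal (2.21 ± 0.47, adjusted p = 4.01e-04). nlp-31 read 29.96, 21.3 and 15.5 CPM in DD, against 2.22 to 4.44 CPM in pan-neuronal (2.63 ± 0.51, adjusted p = 1.45e-04). Of 27 insulin-like peptide genes 22 were lower and 2 higher, with ins-17 at 9.27, 13.5 and 12.4 CPM in DD, against 609 to 870 CPM in pan-neuronal (-5.90 ± 0.52, adjusted p = 1.07e-09).

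The machinery that makes peptides was lower as well, in 11 of its 12 genes, though it stayed far above zero. egl-3, the proprotein convertase, read 1207, 1022 and 1234 CPM in DD, against 12680, 8039, 8085, 8268 and 8158 CPM in pan-neuronal (-2.97 ± 0.59, adjusted p = 1.87e-04). egl-21, the carboxypeptidase that trims peptides, read 604, 535 and 774 CPM in DD, against 7692, 4442, 4644, 4788 and 4979 CPM in pan-neuronal (-3.06 ± 0.60, adjusted p = 1.67e-04). Pan-neuronal library 1 was the highest for both, and without it the differences were -2.82 and -2.89 (adjusted p = 4.79e-04 and 4.42e-04). Of 90 neuropeptide receptor genes tested, 81 were lower in DD and none higher, a median of -3.38. npr-13 read 0.713, 0.501 and 0.872 CPM in DD, against 30.7 to 51.8 CPM in pan-neuronal (-5.76 ± 1.08, adjusted p = 9.45e-05).

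**Figure D3:**
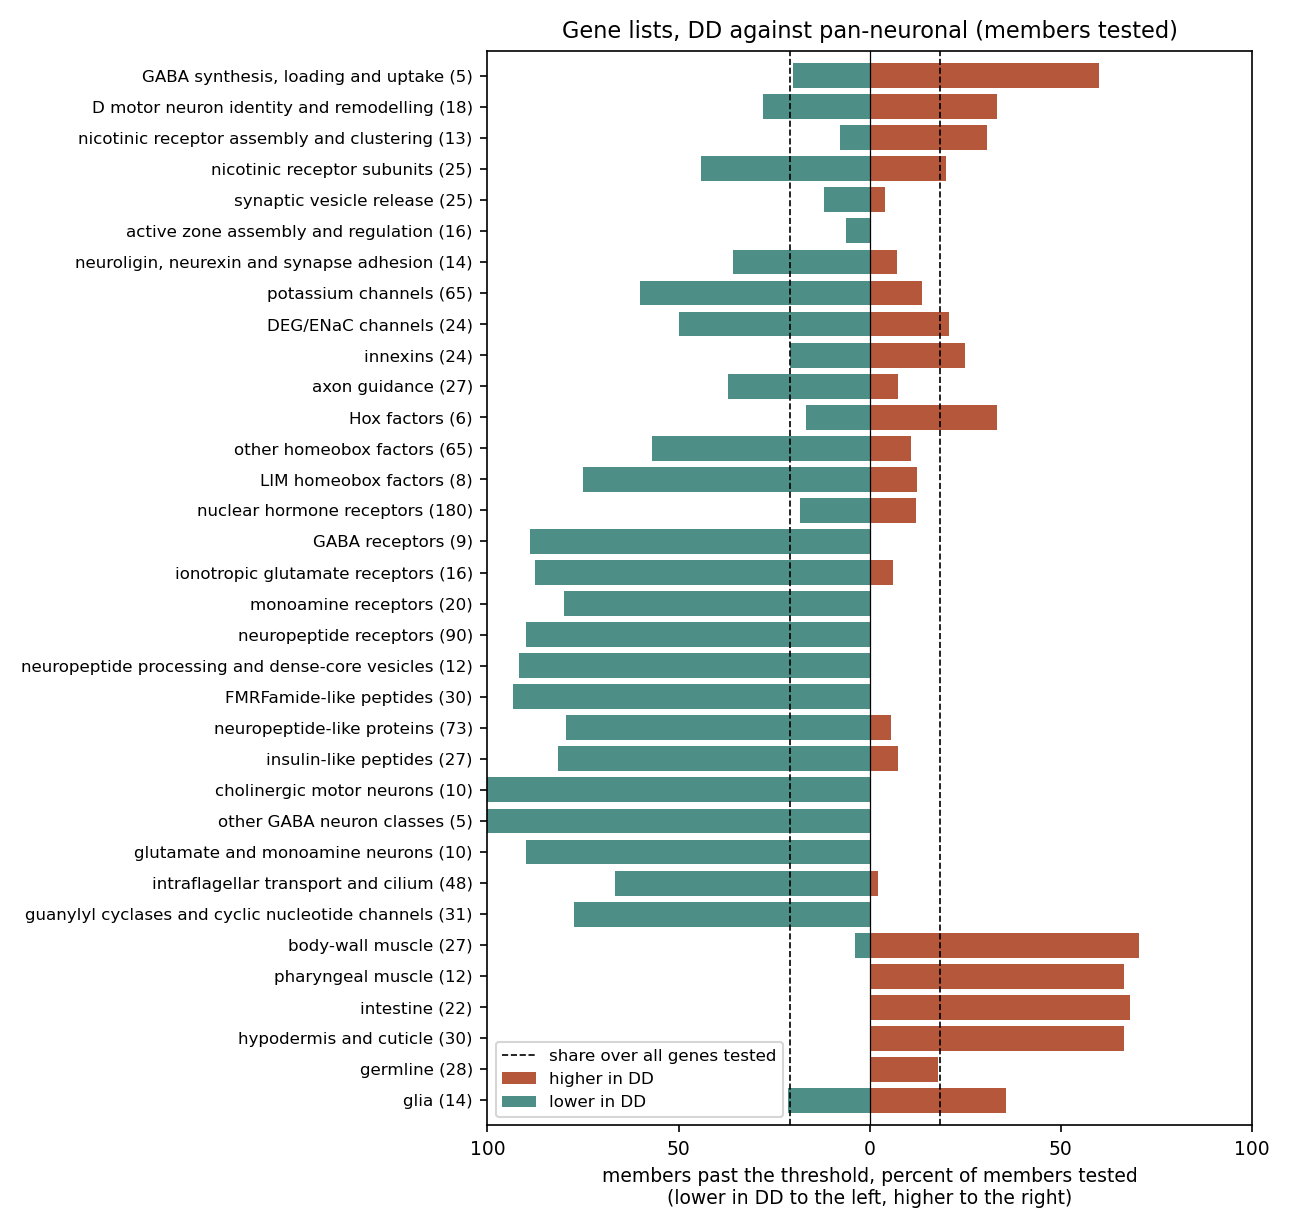
Percent of the tested members of each gene list that were called higher in DD (right) or lower in DD (left), with the number tested in brackets and dashed lines at the shares over all genes, 18.3% higher and 20.8% lower. Peptide, receptor and other-transmitter lists reach to the left, the lists of muscle, intestine and skin reach to the right, and synaptic vesicle and active zone lists stay inside both lines.

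Few genes of the synaptic vesicle cycle passed the test. Of 25 genes for synaptic vesicle release, 1 was higher in DD and 3 were lower, which is under the background shares, with a median of -0.13. snb-1, synaptobrevin, read 670, 786 and 784 CPM in DD, against 667 to 797 CPM in pan-neuronal (0.02 ± 0.42, adjusted p = 0.974). unc-64, syntaxin, read 1090, 835 and 779 CPM in DD, against 648 to 979 CPM in pan-neuronal (0.11 ± 0.47, adjusted p = 0.872). The gene that was higher was unc-10, given above. rbf-1, rabphilin, read 119, 121 and 90.2 CPM in DD, against 690 to 867 CPM in pan-neuronal (-2.76 ± 0.53, adjusted p = 1.14e-04). Together these 25 genes took 1.65%, 1.3% and 1.3% of counts in DD, against 1.24% to 1.37% in pan-neuronal and 0.163% to 0.433% in the all-cell libraries.

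rab-3, the vesicle GTPase whose name the pan-neuronal marker carries, read 710, 757 and 653 CPM in DD, against 2393, 2318, 2539, 2101 and 2215 CPM in pan-neuronal (-1.71 ± 0.56, adjusted p = 0.0159). Non-coding genes at its 5′ end differed far more. C18A3.16, on chromosome II from 5727769 to 5727959, overlaps rab-3 by 85 bases on the other strand and read 4.99, 0.25 and 1.31 CPM in DD, against 1706 to 2373 CPM in pan-neuronal (-10.13 ± 0.85, adjusted p = 1.08e-09). C18A3.18 overlaps rab-3 by 80 bases on the same strand and read 49.9, 6.01 and 6.1 CPM in DD, against 1427 to 2023 CPM in pan-neuronal (-6.40 ± 0.91, adjusted p = 2.18e-06). Reads in these overlaps could be counted for either gene, and whether reads of a reporter construct are among them was not tested. The rab-3 call was lost without DD library 86 (-1.66, adjusted p = 0.0596).

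Apart from unc-10, which was counted with the vesicle release genes, the active zone list held 16 genes. None of these was higher and 1 was lower, elks-1, at 203, 156 and 221 CPM in DD, against 315 to 518 CPM in pan-neuronal (-1.23 ± 0.43, adjusted p = 0.022). elks-1 did not pass without DD library 83 or 84. Among 14 synaptic adhesion genes 1 was higher, madd-4, and 5 were lower (2 without DD library 84 or 86). nlg-1, neuroligin, read 50.6, 23.3 and 22 CPM in DD, against 146 to 205 CPM in pan-neuronal (-2.41 ± 0.50, adjusted p = 2.91e-04). Its partner nrx-1, neurexin, read 270, 221 and 262 CPM in DD, against 494 to 605 CPM in pan-neuronal, and missed the threshold at -1.07 (adjusted p = 0.0502). nrx-1 passed under 5 of 14 alternatives.

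Ion channels were sorted by family. Of 65 potassium channel genes 9 were higher in DD and 39 lower, and all 9 were leak channels of the TWK family. twk-23 read 114, 171 and 255 CPM in DD, against 22.9 to 31.8 CPM in pan-neuronal (2.68 ± 0.49, adjusted p = 7.36e-05). twk-12 read 103, 46.6 and 53.4 CPM in DD, against 7.86 to 13 CPM in pan-neuronal (2.79 ± 0.52, adjusted p = 8.73e-05). twk-43 read 427, 151 and 189 CPM in DD, against 77.9 to 109 CPM in pan-neuronal (1.52 ± 0.44, adjusted p = 0.00636), and did not pass without DD library 83 (0.94, adjusted p = 0.128). Other TWK genes were lower: twk-49 read 60.6, 27.3 and 39.7 CPM in DD, against 668 to 737 CPM in pan-neuronal (-4.04 ± 0.50, adjusted p = 2.57e-07). The voltage-gated channel gene kvs-3 read 10.7, 8.51 and 6.32 CPM in DD, against 158 to 203 CPM in pan-neuronal (-4.36 ± 0.71, adjusted p = 1.71e-05). Without DD library 83 the list had 5 higher and 36 lower members.

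Of 13 calcium and leak channel genes 1 was higher and 2 were lower. itr-1, the IP3 receptor that releases calcium from stores, read 113, 132 and 189 CPM in DD, against 22.6 to 38.9 CPM in pan-neuronal (2.43 ± 0.59, adjusted p = 0.00148). tag-180, a calcium channel auxiliary subunit gene, read 58.5, 46.3 and 30.9 CPM in DD, against 354 to 391 CPM in pan-neuronal (-3.05 ± 0.43, adjusted p = 2.36e-06). Of 24 DEG/ENaC genes 5 were higher and 12 lower, with the touch channel subunit mec-4 at 6.42, 2.75 and 4.58 CPM in DD, against 52.6 to 83.7 CPM in pan-neuronal (-3.98 ± 0.59, adjusted p = 4.42e-06). Of 24 innexin genes, the subunits of gap junctions, 6 were higher and 5 lower (3 without DD library 84), near the background shares in both directions. inx-12 and inx-13, known also from skin and excretory cells, read 40.7, 72.6 and 59.9 and 29.2, 54.6 and 43.4 CPM in DD, against 12.6 to 23.8 and 7.62 to 19.2 CPM in pan-neuronal (differences 1.80 and 1.63, adjusted p = 0.00622 and 0.00864, and 0.0514 for inx-13 without DD library 84). inx-1 read 203, 146 and 238 CPM in DD, against 698 to 823 CPM in pan-neuronal (-1.96 ± 0.46, adjusted p = 0.00116).

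Of 27 axon guidance genes 2 were higher in DD and 10 lower. unc-5, the netrin receptor that turns axons away from the ventral side and that D neurons need to reach the dorsal cord, read 538, 366 and 487 CPM in DD, against 115 to 136 CPM in pan-neuronal (1.90 ± 0.40, adjusted p = 3.19e-04). max-1, which acts with it, read 328, 171 and 160 CPM in DD, against 82 to 123 CPM in pan-neuronal (1.02 ± 0.41, adjusted p = 0.0456), and passed under 5 of 14 alternatives. unc-6, netrin itself, read 46.4, 30.6 and 19.4 CPM in DD, against 229 to 322 CPM in pan-neuronal (-3.14 ± 0.46, adjusted p = 3.92e-06). So the receptor gene was higher and the ligand gene lower. The max-1 call was lost without any 1 of 7 libraries, DD library 86 being the exception.

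Sensory genes were low. Of 48 genes for cilia and intraflagellar transport 32 were lower and 1 higher, and of 31 guanylyl cyclase and cyclic nucleotide channel genes 24 were lower and none higher. gcy-33, a soluble guanylyl cyclase of gas-sensing neurons, read 2.14, 4.01 and 3.7 CPM in DD, against 69 to 80.2 CPM in pan-neuronal (-4.44 ± 0.60, adjusted p = 1.06e-06). che-10, rootletin, was the gene that was higher, at 133, 82.4 and 82.8 CPM in DD, against 35 to 53.3 CPM in pan-neuronal (1.21 ± 0.39, adjusted p = 0.0129), and it did not pass without DD library 83 or pan-neuronal library 11. Pan-neuronal library 1 held more of the cilium list than the others, 0.187% of counts against 0.0711% to 0.0733%, and without it 21 members were lower, against 18 without DD library 84 and 20 without DD library 86. Of 1350 chemoreceptor genes annotated, 268 had counts enough to be tested, of which 116 were lower and 13 higher. Without pan-neuronal library 1, 71 were lower, and without DD library 86, 70.

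Genes of muscle, intestine and skin were higher in DD. Of 27 body-wall muscle genes 19 were higher and 1 lower, of 12 pharyngeal muscle genes 8 were higher, of 22 intestinal genes 15, of 30 skin and cuticle genes 20 and of 14 glial genes 5, with 3 glial genes lower. Without DD library 83 or pan-neuronal library 11, 4 pharyngeal genes were higher, and without DD library 84, 3 glial genes. Of 28 germline genes 5 were higher (0 without DD library 84 and 2 without any 1 pan-neuronal library), of 44 sperm genes 1, and of 6 coelomocyte genes 1 was higher, aman-1, and 2 lower. Their shares of counts did not pass (adjusted p = 0.0804 for germline, 0.153 for sperm and 0.0893 for coelomocyte, exact permutation test). The body-wall muscle genes took 3.55%, 2.06% and 1.91% of all counts in DD, against 1.12% to 1.38% in pan-neuronal, 1.61% to 3.84% in VD and 1.0% to 3.54% in the all-cell libraries. A single gene, unc-54, made up 37.6% of the mean of that share in DD, and unc-54 did not itself pass, as given below. The intestinal genes took 0.354%, 0.559% and 0.608% in DD, against 0.0507% to 0.0891% in pan-neuronal and 0.557% to 0.845% in VD. The skin and cuticle genes took 0.357%, 0.69% and 0.517% in DD, against 0.0676% to 0.148% in pan-neuronal and 0.799% to 0.991% in VD. The pharyngeal genes took 0.272%, 0.074% and 0.141% in DD, against 0.0187% to 0.0363% in pan-neuronal. Of 15 marker lists, 9 shares differed between DD and pan-neuronal by an exact two-sided permutation test (adjusted p = 0.0298 each, from 0.0179, the smallest p that 3 libraries against 5 allow). With 1 DD library left out no list could pass, since 2 against 5 cannot go below 0.0476 before adjustment. No member of these lists was at 0 in every DD library.

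myo-3, a body-wall muscle myosin, read 1035, 416 and 441 CPM in DD, against 69.7 to 101 CPM in pan-neuronal (2.89 ± 0.69, adjusted p = 0.0013). unc-54, the major body-wall myosin, read 13400, 5606 and 7282 CPM in DD, against 7765 to 10760 CPM in pan-neuronal (-0.06 ± 0.52, adjusted p = 0.943), so only the first of these 2 myosin genes passed. Whether reads of a reporter construct are among the unc-54 counts was not tested. The giant muscle proteins unc-89 and unc-22 differed by 3.47 ± 0.74 and 3.17 ± 0.76 (adjusted p = 3.98e-04 and 0.00132). The troponin gene tnt-4 read 334, 39.1 and 113 CPM in DD, against 8.2 to 15.8 CPM in pan-neuronal (3.95 ± 0.74, adjusted p = 9.36e-05). The intestinal actin act-5 read 202, 469 and 867 CPM in DD, against 33.2 to 54.4 CPM in pan-neuronal (3.59 ± 0.80, adjusted p = 6.64e-04). clec-63 read 506, 679 and 879 CPM in DD, against 105, 53.2, 59.2, 65.4 and 54 CPM in pan-neuronal (3.35 ± 0.88, adjusted p = 0.00305). The collagen col-10 read 766, 1245 and 949 CPM in DD, against 48.4, 106, 140, 160 and 152 CPM in pan-neuronal (3.02 ± 0.50, adjusted p = 1.75e-05). fig-1, a glial gene, read 54.9, 67.1 and 58.4 CPM in DD, against 2.73 to 11 CPM in pan-neuronal (3.21 ± 0.61, adjusted p = 1.06e-04). The part that RNA of these tissues plays in the higher genes of DD was not tested.

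**Figure D4:**
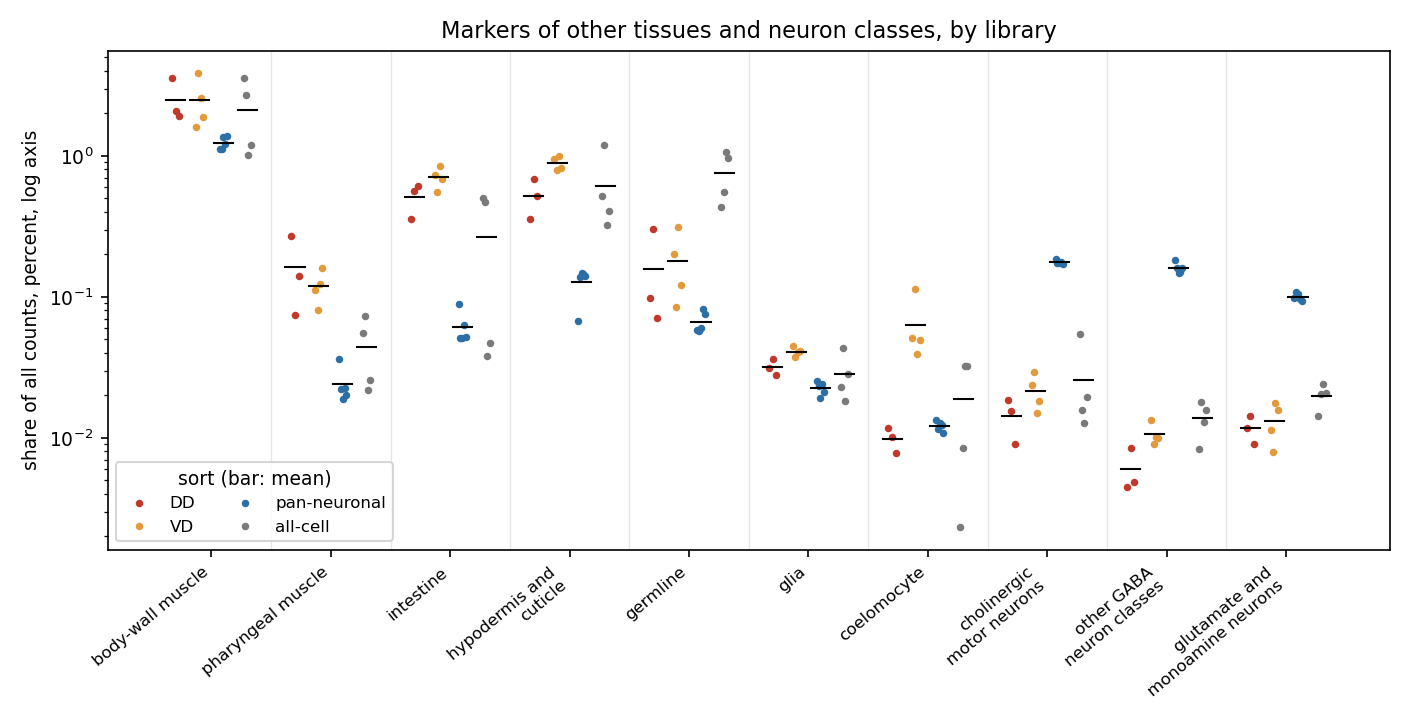
Share of all counts, in percent on a log axis, taken by 10 marker lists in each DD, VD, pan-neuronal and all-cell library, with a bar at each group's mean. Intestine, skin and pharyngeal markers lie higher in DD and VD than in pan-neuronal libraries, and markers of other neuron classes lie lower in DD, VD and all-cell libraries.

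Many of the genes low in DD were non-coding. Of 613 genes of the ncRNA class tested, 360 were lower in DD and 20 higher, a median of -2.85. Of 34 antisense RNA genes 26 were lower and none higher, and of 13767 protein-coding genes 2652 were higher and 2662 lower. D2089.7 had 0 counts in the DD libraries, against 62.2 to 77.3 CPM in pan-neuronal, and was at least 228-fold lower by a floor of 3 counts over the DD group. F45E4.17 had 0 counts in DD, against 51.3 to 87.5 CPM in pan-neuronal, and was at least 222-fold lower. F46A8.7, a short gene annotated as protein-coding, read 0, 0 and 0.218 CPM in DD, against 1406, 177, 153, 185 and 169 CPM in pan-neuronal, where library 1 stood far above the others (-11.36 ± 1.33, adjusted p = 3.07e-07). spe-29, a sperm gene, had 0 counts in DD, against 14.5 to 34.8 CPM in pan-neuronal, and was at least 77.9-fold lower. Whether counting used strand is not given in the sources used here, so reads of overlapping and antisense genes cannot be told apart. spe-29 overlaps gon-1, and D2089.7 overlaps ptb-1, both on the other strand.

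Among the protein-coding genes with the largest negative differences were a transcription factor and 2 secreted products. pax-2, a paired-box factor, read 0, 0.501 and 0.436 CPM in DD, against 162, 96.7, 95.5, 102 and 87.5 CPM in pan-neuronal (-7.92 ± 1.16, adjusted p = 3.80e-06). zig-2, a secreted immunoglobulin-domain protein, read 2.14, 6.76 and 3.49 CPM in DD, against 371 to 513 CPM in pan-neuronal (-6.54 ± 0.77, adjusted p = 1.37e-07). trh-1, a gene for a thyrotropin-releasing-hormone-like peptide, read 2.85, 5.76 and 6.1 CPM in DD, against 370 to 586 CPM in pan-neuronal (-6.41 ± 0.62, adjusted p = 4.13e-09). For all 3 every DD library lay below every pan-neuronal one, which was a condition of being named here and held for 26.9% of all genes.

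Against VD, its sister class, few genes were called: 13 of 15181 were higher in DD (0.0856%) and 15 lower (0.0988%), 0.184% in all. Every DD library lay above every VD library for 1069 genes (7.04%) and below every one for 1329 (8.75%). The small number called therefore does not show that the other genes are alike in the 2 classes. flp-13 read 1706, 675 and 1220 CPM in DD, against 178, 249, 173 and 341 CPM in VD (2.35 ± 0.48, adjusted p = 0.0209). rabr-1 read 27.8, 30.8 and 56 CPM in DD, against 10.4, 7.52, 10.04 and 13.4 CPM in VD (1.88 ± 0.38, adjusted p = 0.0175). odr-2, a membrane protein first known from olfaction, read 71.3, 93.2 and 135 CPM in DD, against 32.4, 20.4, 21.1 and 37.9 CPM in VD (1.84 ± 0.40, adjusted p = 0.0382). ilys-4, a lysozyme-like gene that overlaps atic-1 on the other strand, read 561, 459 and 798 CPM in DD, against 218, 163, 112 and 232 CPM in VD (1.74 ± 0.35, adjusted p = 0.0187). tmem-120 read 35, 19 and 39.4 CPM in DD, against 7.56, 11.1, 11.2 and 7.71 CPM in VD (1.73 ± 0.35, adjusted p = 0.019). The groups did not overlap for any of these 5, as for 7.04% of all genes. For rabr-1, odr-2, ilys-4 and tmem-120 that was a condition of being named, so it adds nothing to their calls. The calls depended on single libraries: flp-13 passed under 7 of 13 alternatives, rabr-1 under 8 of 13, odr-2 under 5 of 13, ilys-4 under 6 of 13 and tmem-120 under 6 of 13. All 5 were lost without DD library 86 or VD library 77, 78 or 79. Over all alternatives the differences were 2.01 to 2.64 for flp-13, 1.49 to 2.05 for rabr-1, 1.56 to 2.03 for odr-2, 1.5 to 1.91 for ilys-4 and 1.51 to 1.99 for tmem-120.

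The genes lower in DD than in VD were led by coelomocyte genes. zip-8 read 4.28, 1.5 and 0.436 CPM in DD, against 44.1, 239, 17.9 and 13.7 CPM in VD (-5.45 ± 1.03, adjusted p = 0.0122). cup-4, an ion channel subunit of coelomocyte endocytosis, read 6.42, 2.0 and 4.14 CPM in DD, against 85.3, 262, 45.8 and 58.4 CPM in VD (-4.81 ± 0.89, adjusted p = 0.0102). lgc-26 read 2.14, 3.25 and 3.49 CPM in DD, against 104, 229, 33.7 and 46.1 CPM in VD (-5.04 ± 0.88, adjusted p = 0.00659). Every DD library was below every VD library for all 3, as for 8.75% of all genes. That was a condition of being named, so it adds nothing to their calls. VD library 78 was the highest in each. Without it the differences were -3.78, -3.97 and -4.29 (adjusted p = 0.127, 0.0856 and 0.0525), and without DD library 86 they were -4.86, -4.85 and -5.16 (adjusted p = 0.12, 0.0943 and 0.0608), so none of the 3 passed in either setting. The 6 coelomocyte markers took 0.0117%, 0.0102% and 0.00776% of counts in DD, against 0.0391% to 0.115% in VD and 0.0108% to 0.0134% in pan-neuronal, and their part in the difference was not tested.

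Factors known from D neuron remodelling or position did not pass against VD. unc-55 read 37.8, 20.8 and 16.3 CPM in DD, against 66.8, 73, 38.7 and 63 CPM in VD (-1.29 ± 0.41, adjusted p = 0.43), so all DD libraries lay below all VD ones by a narrow margin. irx-1 read 305, 231 and 210 CPM in DD, against 53.1, 85.8, 56.1 and 84.6 CPM in VD (1.83 ± 0.44, adjusted p = 0.0872). lin-39 read 475, 293 and 583 CPM in DD, against 141, 216, 84.8 and 134 CPM in VD (1.65 ± 0.43, adjusted p = 0.132). DESeq2's Wald test called all 3. For unc-25, unc-47, unc-46 and unc-30 every DD library lay above every VD library, and none of them passed in the fit of all groups: unc-25 differed by 0.83 ± 0.33 (adjusted p = 0.817) and unc-30 by 0.96 ± 0.45 (adjusted p = 0.986). unc-47, at 0.79 ± 0.34 (adjusted p = 0.937), passed by DESeq2's Wald test (adjusted p = 0.0223).

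**Figure D5:**
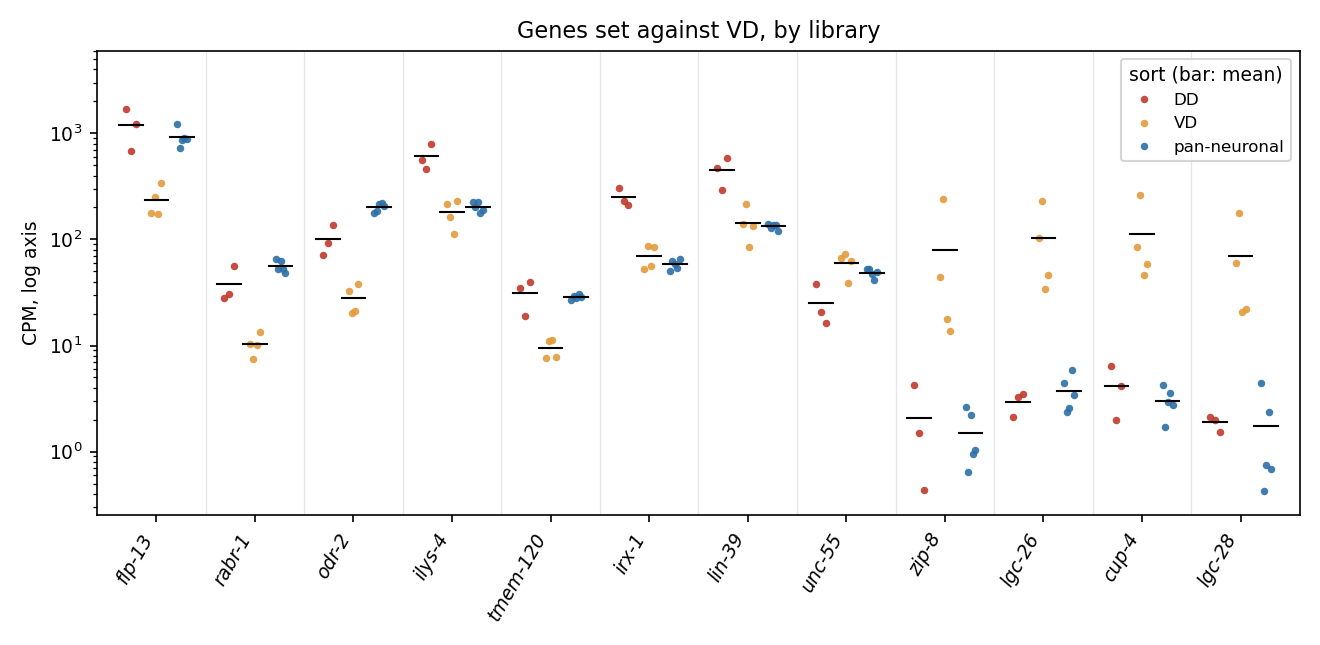
CPM of 12 genes, on a log axis, in each DD (red), VD (orange) and pan-neuronal (blue) library, with a bar at each group's mean. flp-13, rabr-1, odr-2, ilys-4 and tmem-120 lie above VD in every DD library, and zip-8, lgc-26, cup-4 and lgc-28 lie highest in VD, most of all in library 78.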

How the data were processed

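Read counts per gene were deposited by the authors as whole numbers with WormBase WS274 gene identifiers. Alignment and counting used STAR, SAMtools and featureCounts, per the submitters' processing notes. Versions, settings and the genome build were not given in the sources used here. Gene names, biotypes and positions were taken from a WBcel235 annotation, which held 30584 of the 30631 genes, and the length column of the deposited table, a value of another kind, gave the gene lengths in bases.

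Genes were tested with edgeR 4.0.16 in R 4.3.3 by its quasi-likelihood test, with TMM factors and filterByExpr. All 37 libraries in 10 groups shared 1 estimate of the spread, with 27 residual degrees of freedom. DESeq2 1.42.0 gave the alternative Wald test. Shares of counts were compared by an exact two-sided permutation test, adjusted over 15 lists (Python 3.11.15, SciPy 1.17.1). CPM values are counts over TMM-scaled totals. Intervals and floors (3 counts over a group) cover counting error only.

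Named genes were all members of the GABA and D identity lists, the 15 highest and 10 lowest genes with a symbol and the 6 highest and 4 lowest others among those called that did not overlap and averaged 20 CPM or more on the higher side, and up to 4 called members per direction of every other list. acr-12, unc-38, unc-63, acr-2, flp-34, flp-24, flp-11, flp-15, nlp-13, unc-54, lact-7, unc-64, snb-1, C18A3.18, nrx-1 and lev-10 were added after their values were seen. Against VD, the genes named were the highest and lowest with a symbol, under the same conditions of call, level and no overlap. The members and lists were chosen with earlier results of these data known.

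The test was checked on simulated data for DD against pan-neuronal over 13774 genes: 52.1% of 48 genes raised 4-fold were called, none of 47 raised 2-fold, 17.8% of 45 lowered to 0.25 of their level and none of 44 lowered to 0.5, and 2 of 13590 unchanged genes. The simulation gave every gene the same spread, a dispersion of 0.226, and left 13590 genes unchanged. In the real data 5935 of 15181 genes were called, so the simulated shares do not tell what the test finds there. Alternatives were another normalization, no filter, other genes left out, another test, only the groups compared, and each library left out in turn. All columns of the table that hold sample values were matched to the labels. No pair of replicates was treated as 1 library.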

Additional observations from a re-analysis of the deposited data

Results flagged for a closer look

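A library was set apart where its gap to the nearest of its group, as a part of the group's range, passed Dixon's limit of 0.710 for 5 libraries or 0.829 for 4. Of 164 groups of values tested, 38 held such a library, and in 37 of them it was pan-neuronal library 1. The groups share libraries, and some of the genes were named after their values were seen, so this count is not set against chance. The groups of 3 DD libraries are too small for this test.

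Each value of pan-neuronal library 1 is given first and the range of the other 4 pan-neuronal libraries after it. It was the highest for unc-30 at 102 CPM against 71.6 to 79.8 CPM, alr-1 at 118 CPM against 96.5 to 97.8 CPM and crh-1 at 703 CPM against 315 to 344 CPM. Higher there were also ttx-3 at 35.8 CPM against 11.8 to 18.4 CPM, flp-11 at 1068 CPM against 384 to 495 CPM and egl-3 at 12680 CPM against 8039 to 8268 CPM. The same held for egl-21 at 7692 CPM against 4442 to 4979 CPM, unc-10 at 461 CPM against 314 to 341 CPM and nrx-1 at 605 CPM against 494 to 522 CPM. So it was for itr-1 at 38.9 CPM against 22.6 to 26.1 CPM, tnt-4 at 15.8 CPM against 8.2 to 9.63 CPM and clec-63 at 105 CPM against 53.2 to 65.4 CPM. It also stood above the rest for pax-2 at 162 CPM against 87.5 to 102 CPM, zig-2 at 513 CPM against 371 to 397 CPM and F46A8.7 at 1406 CPM against 153 to 185 CPM. Above the others lay aptf-1 at 53.6 CPM against 24.2 to 31.8 CPM, unc-89 at 172 CPM against 116 to 132 CPM and unc-22 at 272 CPM against 155 to 180 CPM. It was the highest for myo-2 at 123 CPM against 58.1 to 69.7 CPM.

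Pan-neuronal library 1 was the lowest for unc-25 at 936 CPM against 1039 to 1069 CPM, unc-47 at 61.3 CPM against 75.1 to 80.6 CPM and unc-8 at 33.7 CPM against 56 to 62.9 CPM. Lower there were also dve-1 at 15 CPM against 33.9 to 39.6 CPM, myrf-1 at 179 CPM against 449 to 527 CPM and pan-1 at 167 CPM against 373 to 421 CPM. Below the others lay cdk-5 at 43.6 CPM against 71 to 77.7 CPM, cyy-1 at 60.2 CPM against 90.9 to 98 CPM and acr-14 at 17.9 CPM against 24.5 to 26.6 CPM. It also stood under the rest for aip-1 at 94.7 CPM against 339 to 387 CPM, cat-1 at 104 CPM against 142 to 155 CPM and egl-5 at 16.8 CPM against 37 to 41.3 CPM. The same direction was seen for elks-1 at 315 CPM against 464 to 518 CPM.

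Its markers of other cell types stood apart too. Cilium genes took 0.187%, against 0.0711% to 0.0733% in the others. Pharyngeal muscle genes took 0.0363%, against 0.0187% to 0.0225% in the others. Skin and cuticle genes took 0.0676%, against 0.137% to 0.148% in the others. Genes of the mitochondrial genome took 1.06%, against 1.81% to 2.08% in the others, and heat shock and stress genes 0.525%, against 2.11% to 2.46% in the others. With this library left out, 2431 genes were higher in DD and 2749 lower.

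In VD library 78, zip-8 read 239 CPM, against 13.7 to 44.1 CPM in the other VD libraries. The same library was the highest VD library for cup-4 and lgc-26.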

How the results depend on the processing

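No paired analysis was possible because DD shares no replicate number with the pan-neuronal or VD libraries. Of the log2 differences of named genes under the alternatives, 3619 kept their side of the threshold, 121 no longer passed and 28 newly passed. Among the 3619 were 131 values, of 47 differences that did not pass with all libraries, that changed sign, such as lact-7 against pan-neuronal, at 1.91 with and -0.45 without DD library 83. No called value changed sign. With no filter on low counts 5434 genes were lower in DD than in pan-neuronal, among 29434 tested in place of 15181. Leaving out 1 library at a time gave 1740 to 2431 genes higher and 2470 to 3458 lower. Against VD, DESeq2's Wald test called 60 genes higher and 31 lower in DD, and a fit of only these 2 groups called 2 higher and 0 lower. At an unadjusted p under 0.05 that fit had 2198 genes, against 685 in the fit of all groups. Leaving out 1 library gave 1 to 15 higher and 2 to 14 lower. Of the marker lists, 0 to 11 differed in share when 1 library was left out, the 0 being the settings without a DD library, which cannot pass after adjustment. With TMM-scaled totals the glial and ribosomal protein shares no longer passed (adjusted p = 0.156, exact permutation test). The cause of these changes was not tested beyond the number of genes or libraries. The UNC-30 motif in promoters was not run, since no promoter sequence was used here. Depth limits genes with few counts in DD library 83, the shallowest. In simulated data 2-fold changes were not recovered, but the spread and the number of changed genes there differ from the real data.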

Other observations

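Of 79 ribosomal protein genes tested, 10 were higher in DD and none lower, with a median log2 difference of 0.37. The count was 43 with library totals alone, 16 without DD library 83 and 4 without DD library 86, pan-neuronal library 1 or pan-neuronal library 11. Their share of counts was 5.31%, 6.52% and 7.39% in DD, against 2.45% to 4.67% in pan-neuronal and 6.75% to 6.94% in VD. Of 43 histone genes 11 were higher and 5 lower, and near-identical copies make these counts uncertain. The higher count was 5 without DD library 86, 6 without pan-neuronal library 7 and 7 without pan-neuronal library 10 or 11, and the lower count was 3 without DD library 84. Of 32 genes of the mitochondrial genome 2 were higher and 2 lower.

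Of 20 heat shock and stress genes 10 were lower in DD and 2 higher, against 20.8% lower and 18.3% higher over all genes. aip-1, an arsenite-induced gene, read 54.2, 35.1 and 48.8 CPM in DD, against 94.7, 359, 351, 339 and 387 CPM in pan-neuronal (-2.74 ± 0.50, edgeR adjusted p = 7.73e-05). hsp-60, the mitochondrial chaperonin, was among the higher members, at 227, 373 and 470 CPM in DD, against 62.6 to 192 CPM in pan-neuronal (1.26 ± 0.37, edgeR adjusted p = 0.00756), a call that was lost without DD library 86. sysm-1 and irg-5, genes known from infection responses, were among the leading genes in DD. sysm-1 read 3.57, 22 and 47.9 CPM in DD, against 0.235 to 1.05 CPM in pan-neuronal, and irg-5 read 44.9, 13.8 and 126 CPM in DD, against 1.07 to 2.59 CPM in pan-neuronal. Both passed without DD library 83, and their part beside the intestinal markers was not tested.

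Of 180 nuclear hormone receptor genes tested, 22 were higher in DD (12.2%) and 33 lower (18.3%). The higher count was 13 without DD library 86 or pan-neuronal library 11, and the lower count was 19 without pan-neuronal library 1 and 20 without DD library 84 or 86. Of 194 snoRNA genes 35 were higher and 15 lower, and of 376 pseudogenes 49 were higher and 68 lower.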
